A study of Rattus norvegicus with 61 samples.

Results

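Splenic B cells and splenic CD4 T cells of the rat were compared, with 6 libraries of each, 12 of the 61 samples of the series. The 12 libraries were chosen by their sample labels and columns, and no measured value entered that choice. Both cell types came from untreated male Sprague-Dawley rats with the genotype WT, bought at an age of 6 weeks, and no agent was given to either group. B cells were sorted on a FACSAria III as CD45+/CD11b-/CD3-/CD45RA+ events and CD4 T cells as CD45+/CD11b-/CD3+/CD4+ events, after dead cells had been gated out with 7-AAD. The study used these libraries as reference profiles from which the cell composition of rat tissues was estimated. The sources do not tie a library to an animal, so the p-values measure only the spread between these samples, which may be technical.

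B cells recognise antigen through membrane immunoglobulin, take it up, and present its peptides on class II molecules of the major histocompatibility complex. Helper T cells carry the CD4 co-receptor and a T cell receptor that signals through the CD3 complex, and they see antigen only as such peptides. Both arise from lymphoid progenitors and meet in the spleen, where B cell follicles border on the T cell zone. As resting lymphocytes they share the transcripts of basic cell function. Their antigen receptors, co-receptors and lineage transcription factors are the textbook differences between them.

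The table gives 1 value for each of 31196 Ensembl transcripts in each library. Library totals ran from 9697465 to 12281799, and each library had 42.0% to 43.6% of its values at 0. Of all transcripts, 9082 were listed at 0 in all 12 libraries, and another 8102 had a mean under 1 CPM (estimated counts per 1000000 of the library total). The remaining 14012 were tested. Gene names could not be attached to the identifiers, so the sorting antigens and lineage markers could not be looked up. The labels were therefore not checked against defining genes, and transcripts are given by identifier without a function.

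Before the results, 2 libraries have to be named that stood apart from the others of their label. On the log2(CPM + 1) scale, Pearson's r across transcripts was 0.931 to 0.978 between B cell libraries (median 0.964), 0.934 to 0.968 between CD4 T cell libraries (median 0.961) and 0.902 to 0.973 between the cell types (median 0.942). These correlations describe pairs of libraries over transcripts that are not independent replicates. Of the 12 libraries, 11 had a higher mean r to the other libraries of their own label than to those of the other label. The exception was CD4 T cell replicate 5, with a mean r of 0.951 to the other CD4 T cell libraries and 0.965 to the B cell libraries. The first principal component held 35.3% of the variance, with B cell libraries at 10.0 to 37.1. CD4 T cell libraries lay at -55.7 to -8.02 on it, apart from replicate 5 at 10.5. The second component held 15.1%, and B cell replicate 2 lay at 52.8 on it, above every other library. The results below are given with all 12 libraries and, where they rest on these 2, without them.

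**Figure D1:**
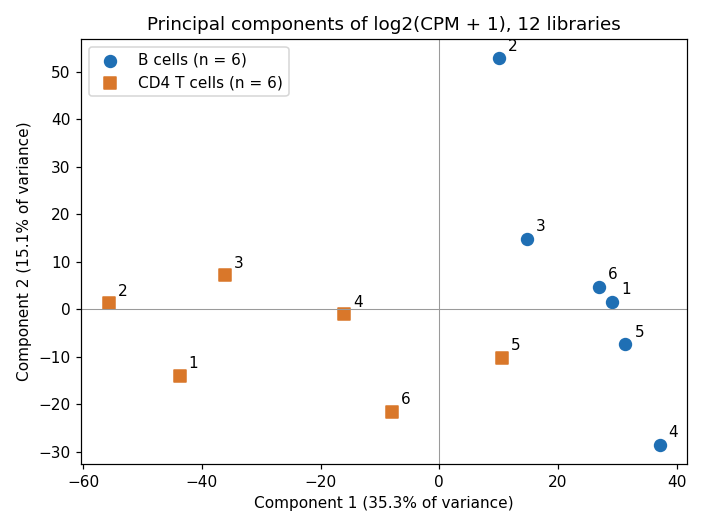
The first (x axis, 35.3% of the variance) and second (y axis, 15.1%) principal components of log2(CPM + 1) are plotted for the 6 B cell libraries (circles) and the 6 CD4 T cell libraries (squares), with the replicate number beside each point. CD4 T cell replicate 5 sits at 10.5 on the first component, within the B cell range of 10.0 to 37.1, and B cell replicate 2 sits at 52.8 on the second.

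The first question was which transcripts separated the B from the helper T lineage. At an adjusted p under 0.05 in edgeR's quasi-likelihood test, 1095 transcripts were higher in B cells (7.81% of those tested) and 1195 were higher in CD4 T cells (8.53%), together 16.3%. At an unadjusted p under 0.05 there were 4351 in all. Scaling moved the balance of the directions. B cells held 47.8% of the calls with TMM normalization, and 33% with library totals alone, where 734 were higher in B cells and 1490 in CD4 T cells. Over everything tested, the median log2 difference was -0.01 with TMM and -0.10 without it. In bulk samples, fewer cells with a transcript and less of it per cell cannot be told apart.

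Most separating transcripts differed by less than 2-fold. The median fold was 1.71 among the transcripts higher in B cells and 1.47 among those higher in CD4 T cells, against 1.16 in either direction over all transcripts tested. A fold over 1.5 was fitted for 704 of the B-higher and 567 of the CD4T-higher transcripts. Over 2-fold there were 343 and 264, over 3-fold 41 and 48, and over 4-fold 3 and 16. All 19 transcripts over 4-fold had a mean under 10 CPM. The largest called log2 fold changes were 3.28 toward B cells and -4.80 toward CD4 T cells. The tested transcripts also held 20 with a fitted change over 16-fold, of which 1 was called. They were above 0 in at most 6 of the 12 libraries, and 9 of them in 1 library alone.

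**Figure D2:**
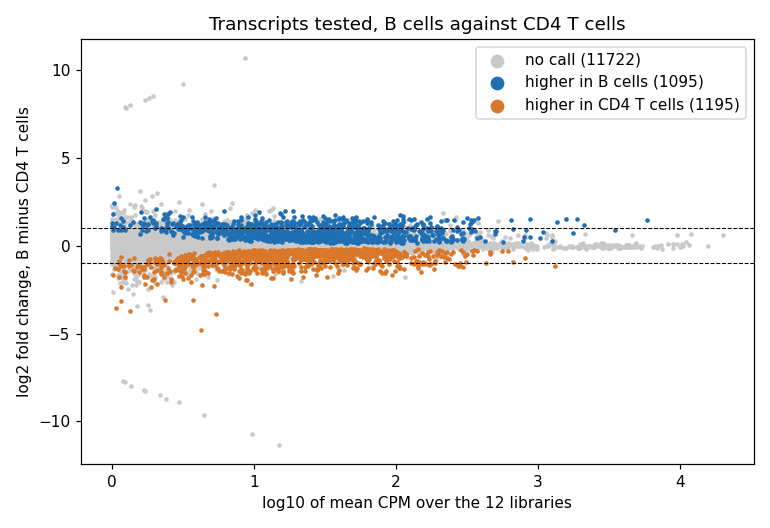
Each point is 1 of the 14012 transcripts tested, by the log10 of its mean CPM over the 12 libraries (x axis) and its log2 fold change, B cells minus CD4 T cells (y axis), with dashed lines at 2-fold. The 1095 transcripts higher in B cells (blue) and the 1195 higher in CD4 T cells (orange) mostly lie close to or inside the dashed lines, and the grey points beyond 16-fold are those above 0 in at most 6 libraries.

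Separation of all 6 libraries from all 6 was less common than a call and was uneven between the cell types. Every B cell library lay above every CD4 T cell library in 247 transcripts, 1.76% of those tested, and 241 of these were called. Every CD4 T cell library lay above every B cell library in 787 transcripts, 5.62% of those tested, and 665 of these were called. In either direction this was 1034 transcripts (7.38%). The unevenness moved with the 2 libraries that stood apart. Without CD4 T cell replicate 5 the numbers were 864 (6.18%) and 972 (6.95%), and without B cell replicate 2 they were 267 (1.91%) and 1645 (11.7%). Without both they were 981 (7.03%) and 1941 (13.9%), over fewer libraries.

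The calls grew when these libraries were left out, apart from those higher in B cells without B cell replicate 2. The 2 libraries were picked after seeing the same values, because they stood apart. A rise on leaving them out is therefore no independent support for the calls. Without CD4 T cell replicate 5, 1622 transcripts were higher in B cells and 1442 in CD4 T cells (21.9% of those tested), and these included 1075 and 1164 of the calls made with all 12 libraries. Over 2-fold there were then 589 and 322, and over 4-fold 18 and 25. Without B cell replicate 2 the counts were 1085 and 1436, and without both libraries 1845 and 1849 (26.5%). The opposite direction was called for 0 of the transcripts under each of these 3 settings. The median fold stayed low, at 1.77 and 1.43 without both libraries.

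Near absence from the libraries of the other cell type was rare. Since the labels were not checked against defining genes, this describes the libraries and not the cell types. Of the transcripts called by edgeR, 0 had every library of the other cell type at or under 3 counts, in either direction, and 0 had every such library under 0.1 CPM. At an unadjusted p under 0.05, edgeR gave 8 such transcripts near absent from CD4 T cells and 11 near absent from B cells. After adjustment DESeq2 called 3 and 4, and limma on log2(CPM + 1) called 0 and 0 (0 and 2 unadjusted). Likewise, 0 transcripts reached 10 CPM in all libraries of one cell type while staying under 1 CPM in all of the other. Of the 1095 transcripts higher in B cells, 1090 were above 0 in every CD4 T cell library. Of the 1195 higher in CD4 T cells, 1184 were above 0 in every B cell library. Leaving out single libraries raised the counts at or under 3 to at most 1 transcript for CD4 T cells and at most 3 for B cells, the 3 without B cell replicate 6.

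Among the transcripts higher in B cells, ENSRNOT00000025344 had the largest difference in CPM of those whose groups did not overlap. In B cells it measured 8845, 11510, 7281, 6479, 7685 and 8876 CPM in replicates 1 to 6, with a mean of 8446 ± 1763 (SD, n = 6). In CD4 T cells it measured 1603, 1561, 3092, 3642, 5573 and 3529 CPM, with a mean of 3167 ± 1495 (SD, n = 6). The lowest B cell library lay above the highest CD4 T cell library, which was replicate 5. The log2 fold change was 1.48 with a standard error of 0.29, and the edgeR quasi-likelihood adjusted p was 0.00663.

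The group means of this transcript were higher in the 4 splenic lymphocyte groups and in whole spleen than in the groups from blood. It averaged 3297 ± 1674 CPM in CD8 T cells, 4404 ± 1575 CPM in NK (natural killer) cells and 6401 ± 610.6 CPM in the 5 whole spleens. Monocytes and neutrophils from blood measured 1576 ± 229.0 and 1260 ± 237.0 CPM, and whole blood cells 2497 ± 378.7 CPM. In samples that did not choose it, ENSRNOT00000025344 was higher in whole spleen than in whole blood cells by 1.2 on the log2 scale (standard error 0.10, edgeR quasi-likelihood adjusted p 1.33e-05). Between CD8 T and NK cells its log2 difference was -0.39 with a standard error of 0.29 and did not pass the test (edgeR adjusted p 0.46).

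ENSRNOT00000048493 had the largest fold among B-higher transcripts that did not overlap and reached 10 CPM in B cells. It measured 36.1, 15.8, 28.2, 18.4, 30.9 and 26.6 CPM in the B cell libraries (mean 25.99 ± 7.66, SD, n = 6). In the CD4 T cell libraries it measured 4.98, 1.64, 1.83, 13.2, 15.1 and 5.28 CPM (mean 7.01 ± 5.78, SD, n = 6). The gap was narrow, between B cell replicate 2 and CD4 T cell replicate 5. The log2 fold change was 1.97 with a standard error of 0.50 (edgeR quasi-likelihood adjusted p 0.0183), and in a fit of all 36 sorted libraries it was 1.98 and did not pass (adjusted p 0.0563). In CD8 T cells it spread from 5.51 to 41.1 CPM, a range that takes in all 6 B cell values. It was also higher in whole spleen than in whole blood cells, by 2.76 on the log2 scale (standard error 0.84, edgeR quasi-likelihood adjusted p 0.021).

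On the other side, ENSRNOT00000064892 had the largest difference in CPM among transcripts higher in CD4 T cells. In CD4 T cells it measured 2408, 2369, 1780, 1526, 1249 and 1853 CPM in replicates 1 to 6, with a mean of 1864 ± 458.5 (SD, n = 6). In B cells it measured 767.2, 489.7, 826.0, 973.0, 887.9 and 723.4 CPM, with a mean of 777.9 ± 166.5 (SD, n = 6). The lowest CD4 T cell library was again replicate 5, and the lowest B cell library was replicate 2. The log2 fold change was -1.15 with a standard error of 0.20 (edgeR quasi-likelihood adjusted p 0.00396).

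The levels of ENSRNOT00000064892 in the other groups ran from T cells downward. CD8 T cells averaged 1441 ± 281.8 CPM, whole blood cells 1002 ± 91.7, NK cells 962.1 ± 84.9 and whole spleen 888.5 ± 73.8 CPM. Neutrophils and monocytes measured 585.8 ± 119.0 and 544.0 ± 42.6 CPM, and control liver 1.54 ± 0.95 CPM. CD8 T cells exceeded NK cells by 0.66 on the log2 scale (standard error 0.16, edgeR quasi-likelihood adjusted p 0.00578), in libraries that had no part in its choice.

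ENSRNOT00000075872 had the largest fold among CD4T-higher transcripts that did not overlap and reached 10 CPM. It measured 15.1, 5.01, 10.5, 10.0, 6.59 and 14.1 CPM in the CD4 T cell libraries (mean 10.2 ± 3.98, SD, n = 6). In B cells it was listed at 0 in 5 libraries and at 4.01 CPM in replicate 3. The log2 fold change was -3.89 with a standard error of 1.01 (edgeR quasi-likelihood adjusted p 0.0209). The fitted size, but not the call, rests on the single B cell library above 0. Without that library, every remaining B cell value was 0 and the fit gave -9.82 (edgeR quasi-likelihood adjusted p 0.00283). With the other 5 set to 3 deposited counts per library, the CD4 T cell mean lay 38.2-fold above them. Whole reads were not recovered from these values, so this ratio is not a lower bound. DESeq2 gave -3.84 and did not pass (adjusted p 0.093). Values of 0 also occurred among CD8 T, NK, monocyte, neutrophil, spleen and whole blood libraries, and all 5 control livers were at 0.

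**Figure D3:**
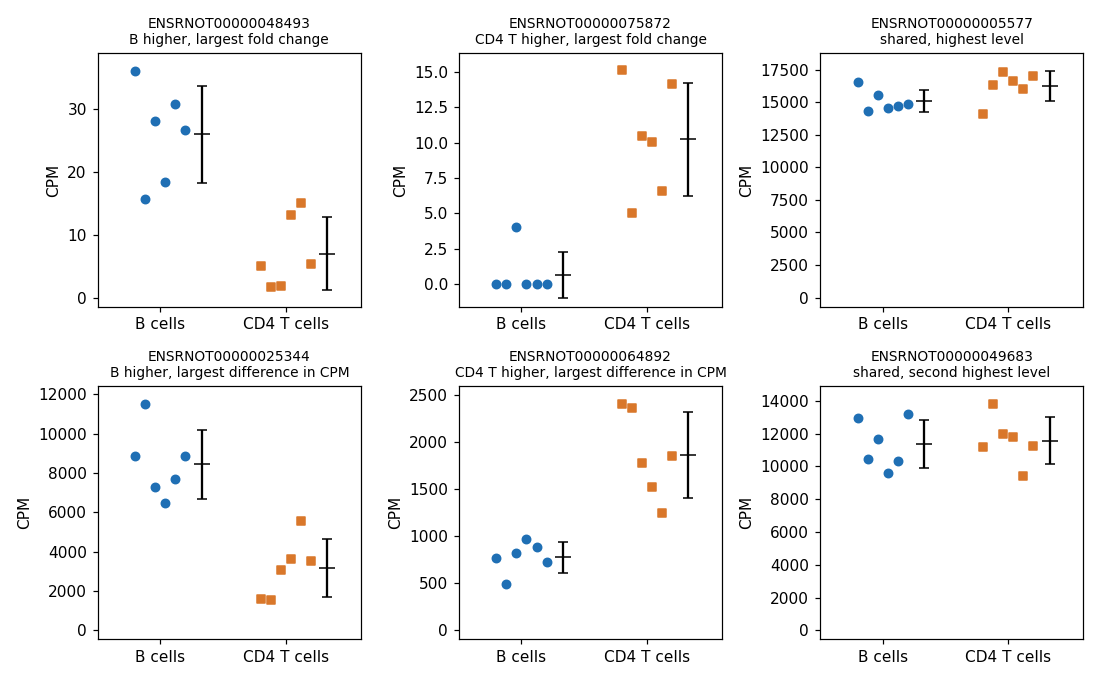
CPM of the 6 named transcripts is plotted for the 6 B cell (circles) and 6 CD4 T cell (squares) libraries. The y axes start below 0. Libraries are in replicate order, with the mean and SD to the right of each group. The groups do not overlap in the left and middle panels, where CD4 T cell replicate 5 is the closest to the B cells in 3 of the 4, and they overlap in the right panels of the shared transcripts.

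The second question was how large the shared part was. A transcript was counted as shared when the 95% interval of its log2 fold change lay inside the 2-fold bounds, since a p that misses the threshold does not show likeness. This held for 10192 of 14012 transcripts, 72.7% of those tested, and 7423 (53%) lay inside 1.5-fold bounds. The shared transcripts had a median fold of 1.104 in either direction, and 1 in 10 of them exceeded 1.31. Calls and sharing were not exclusive, because 1172 transcripts were called and also shared, 462 higher in B cells and 710 higher in CD4 T cells. A further 9020 were shared and not called (64.4%). The last 2702 (19.3%) were neither, with a median level of 2.88 CPM, and 80.7% of them had a mean under 10 CPM.

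The shared transcripts carried most of the library total. Their share was 79.7% to 83.3% in B cells (median 81.8%) and 82.7% to 91.0% in CD4 T cells (median 87.4%). The lowest CD4 T cell value, in replicate 5, lay within the B cell range. These shares were not tested, because the same libraries chose the transcripts. For the same reason the B-higher transcripts are only described, at 9.00% to 12.6% of the total in B cells and 4.67% to 8.35% in CD4 T cells, and the CD4T-higher ones at 3.34% to 3.72% and 4.69% to 6.95%.

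The 2 shared transcripts of highest level, taken among those inside 1.5-fold bounds, show what likeness meant here. ENSRNOT00000005577 measured 16529, 14361, 15555, 14526, 14711 and 14862 CPM in B cells (mean 15091 ± 816.2, SD, n = 6). In CD4 T cells it measured 14101, 16364, 17326, 16605, 16021 and 17005 CPM (mean 16237 ± 1143, SD, n = 6). The groups overlapped. CD4 T cell replicate 1 was the lowest of the 12, and B cell replicate 1 also lay above CD4 T cell replicates 2 and 5. The 95% interval of the log2 fold change ran from -0.21 to 0.17. Its level was 11332 ± 1239 CPM in monocytes, 10209 ± 2164 CPM in neutrophils and 2174 ± 210.0 CPM in control liver.

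ENSRNOT00000049683 measured 9632 to 13173 CPM in B cells (mean 11376 ± 1469, SD, n = 6) and 9444 to 13810 CPM in CD4 T cells (mean 11573 ± 1418, SD, n = 6). The interval of its log2 fold change ran from -0.17 to 0.31. It was not a transcript of lymphocytes alone, since the 5 control livers averaged 21694 ± 5869 CPM and ranged above every B and CD4 T cell library. Between CD8 T and NK cells, the shared pair did not pass the test either (edgeR quasi-likelihood adjusted p 0.352 and 0.614).

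How many transcripts were called or shared followed their level. Of the 2328 transcripts with a mean under 3 CPM, 6.83% were called and 33.7% were shared, with a median standard error of 0.35 on the log2 scale. From 3 to 10 CPM, 13.3% were called and 69.8% shared. From 10 to 30 CPM these shares were 18.2% and 85.9%, and from 30 to 100 CPM 22.9% and 86.4%. At 100 CPM or more, 23.2% of 1119 transcripts were called and 81.2% were shared, with a median standard error of 0.088. In that highest class 173 were higher in B cells and 87 in CD4 T cells, and in the class from 10 to 30 CPM 334 and 427. Of the transcripts under 3 CPM, 1387 of 2328 were neither called nor shared.

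Single values per library gave no difference that passed the test with all 12 libraries. The number of transcripts at 1 CPM or more was 13782 ± 124.3 in B cells and 13804 ± 198.7 in CD4 T cells (SD, n = 6, two-sided exact permutation p 0.842, adjusted p 0.957 over 3 values). The 10 highest transcripts held 12.7% ± 1.17 of the total in B cells and 11.8% ± 0.75 in CD4 T cells (SD, n = 6, exact permutation p 0.117, adjusted p 0.351). Without B cell replicate 2, whose share was 10.6%, this difference grew from 0.96 to 1.38 percentage points and passed (exact permutation adjusted p 0.026). The 100 highest held 46.3% ± 1.82 and 46.4% ± 1.93 (exact permutation p 0.957, n = 6).

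Libraries that had no part in the choice of the transcripts were then placed between the 2 cell types. Each library was given a position for each called transcript on the log2(CPM + 1) scale, with 0 at the CD4 T cell mean and 100 at the B cell mean, and the median over transcripts was taken. A B or CD4 T cell library was placed by calls and means of the other 11. B cell libraries lay at 76.7 to 104.6 (median 96.3) and CD4 T cell libraries at -54.6 to 62.8 (median 8.64). All but CD4 T cell replicate 5, at 62.8, lay on their own side of 50. B cell replicate 2 lay at 152.1 on the transcripts higher in B cells but at 56.2 on those higher in CD4 T cells.

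The other lymphocytes and the whole organ spread between these ends. CD8 T cell libraries lay at -34.0 to 72.6 (median 11.8), with 5 of 6 under 50 and replicate 5 highest. NK cell libraries lay at 3.75 to 87.3 (median 55.6), again with replicate 5 highest. The 5 whole spleens lay at 67.1 to 93.0 (median 77.4), all on the B cell side of 50. The libraries numbered 5 were thus the nearest to the B cell end in all 3 groups of T and NK cells. The labels do not say whether a number marks a shared animal or day, and the part of any such sharing in these positions was not tested.

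**Figure D4:**
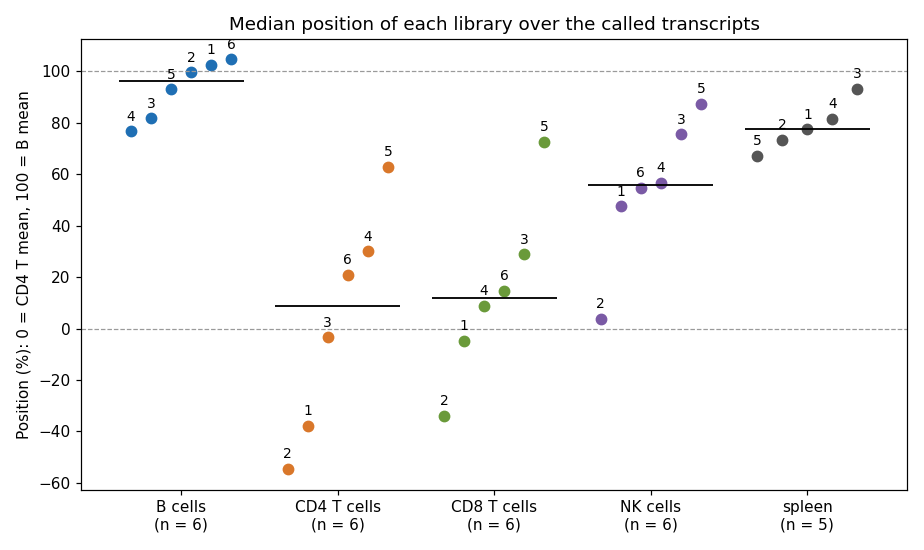
The median position of each library over the called transcripts is plotted (y axis, percent, 0 at the CD4 T cell mean and 100 at the B cell mean, dashed lines) for 5 groups (x axis), with the replicate number over each point and a bar at the group median. CD4 T cell replicate 5 lies at 62.8, CD8 T cell replicate 5 at 72.6 and NK cell replicate 5 at 87.3, each the highest of its group, and all 5 spleens lie between 67.1 and 93.0.

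The called transcripts were followed in contrasts of other samples. Between CD8 T and NK cells, 5.21% of 14143 tested transcripts were higher and 6.75% lower in CD8 T cells. Of the transcripts higher in CD4 T cells, 1166 were tested there, and 377 (32.3%) were higher in CD8 T than in NK cells while 35 (3.00%) were lower. Of 1064 transcripts higher in B cells, 4 (0.376%) were higher and 150 (14.1%) lower in CD8 T cells. Shared transcripts lay near the background, with 515 (5.09%) higher and 582 (5.75%) lower of 10125. For transcripts over 2-fold higher in CD4 T cells, 116 of 237 (48.9%) were higher in CD8 T than in NK cells and 2 were lower. For those over 2-fold higher in B cells, 0 of 317 were higher and 23 (7.26%) lower. That lower share was near the 6.75% of all tested. Without the CD8 T and NK cell libraries numbered 5, 432 (37.0%) of the CD4T-higher transcripts were higher and 52 (4.46%) lower, against 6.41% and 8.79% of all tested. With library totals alone 244 (20.9%) were higher and 37 (3.17%) lower, against 3.19% and 7.93% of all tested. With limma on log2(CPM + 1), which also used library totals, 254 (21.8%) were higher and 34 (2.92%) lower, against 3.56% and 8.49%. With the members called without CD4 T cell replicate 5, 420 of 1410 (29.8%) were higher and 35 lower.

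Whole spleen against whole blood cells gave the other direction. Of 13885 tested transcripts, 22.7% were higher and 23.9% lower in spleen. Of 1084 transcripts higher in B cells, 491 (45.3%) were higher in spleen and 243 (22.4%) lower. Of 1168 higher in CD4 T cells, 164 (14.0%) were higher in spleen and 378 (32.4%) lower. Over 2-fold, 199 of 334 B-higher transcripts (59.6%) were higher in spleen, and 6 of 239 CD4T-higher ones (2.51%). This contrast depended on scaling. With library totals alone, 35.2% of all tested transcripts were higher in spleen and 14.7% lower. Of the CD4T-higher transcripts, 305 (26.1%) were then higher and 215 (18.4%) lower, so that the order of these 2 counts turned along with that of all transcripts. For the B-higher transcripts the counts were 598 (55.2%) and 141 (13.0%). With limma on log2(CPM + 1), again on library totals, the CD4T-higher counts were 312 and 221, against 36.1% and 14.9% of all tested.

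Monocytes against neutrophils served as a contrast outside the lymphocytes, with 19.9% of the tested transcripts higher and 21.8% lower in monocytes. B-higher transcripts were called higher in 250 of 1064 (23.5%) and lower in 275 (25.8%). CD4T-higher transcripts were called higher in 203 of 1166 (17.4%) and lower in 276 (23.7%). Over all members these shares lay near the background. Over 2-fold, 46 of 317 B-higher transcripts (14.5%) were higher and 61 (19.2%) lower. Of 237 CD4T-higher ones over 2-fold, 4 (1.69%) were higher and 59 (24.9%) lower, so the higher share lay below the background. The counts over all members turned with scaling, to 471 and 143 and to 429 and 97 with library totals alone. There 43.8% of all tested transcripts were higher and 10.1% lower, and their median lay at 0.37 on the log2 scale. With limma on log2(CPM + 1), again on library totals, the member counts were 485 and 142 and 439 and 95. Of all tested transcripts, 45.1% were then higher and 10.1% lower.

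Set beside these contrasts, the 2 splenic cell types had few large differences but not smaller ones throughout. The median fold of the called transcripts was 1.58 between B and CD4 T cells, 1.62 between CD8 T and NK cells, 1.604 between monocytes and neutrophils and 1.49 between spleen and whole blood cells. Over 1.5-fold lay 18.9% of the tested transcripts between B and CD4 T cells and 15.0% between CD8 T and NK cells. Called differences over 4-fold numbered 19 between B and CD4 T cells, 173 between CD8 T and NK cells, 551 between monocytes and neutrophils and 507 between whole spleen and whole blood cells. Over 16-fold they numbered 1, 13, 41 and 50. The share of transcripts inside the 2-fold bounds was 72.7% for B against CD4 T cells, 72.4% for CD8 T against NK cells, 60.6% for monocytes against neutrophils and 69.2% for spleen against whole blood cells. Without CD4 T cell replicate 5 and B cell replicate 2, 48 differences between B and CD4 T cells were over 4-fold. The fits differed in their number of samples, and the contrasts were not tested against each other.

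**Figure D5:**
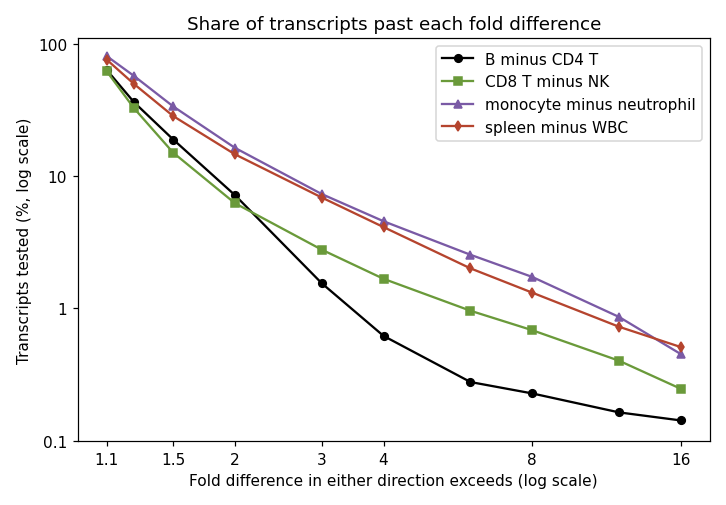
The percentage of tested transcripts (y axis, log scale) whose fitted fold difference in either direction exceeds the value on the x axis (log scale) is drawn for 4 contrasts. B against CD4 T cells (black) starts with 63.4% over 1.1-fold and holds 7.19% over 2-fold, close to CD8 T against NK cells with 6.24%, and it is the lowest curve from 3-fold onward, with 0.621% over 4-fold.

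Breadth across the other sorted cell types was the rule for both directions. Of the transcripts higher in B cells, 993 (90.7%) reached a mean of 1 CPM in each of CD8 T cells, NK cells, monocytes and neutrophils, and 5 in none of them. Of those higher in CD4 T cells, 1109 (92.8%) did so and 8 reached it in none. The same held for 95% of the shared transcripts and 87.4% of all tested. In control liver the order was different, with 70.6% of the B-higher, 68.7% of the CD4T-higher and 85.6% of the shared transcripts at 1 CPM or more, against 74.7% of all tested. The median level of the B-higher transcripts was 29.8 CPM in B cells, 27.7 CPM in spleen and 19.9 CPM in CD4 T cells. For the CD4T-higher transcripts the median was 21.6 CPM in CD4 T cells, 19.4 CPM in CD8 T cells and 13.7 CPM in B cells.

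Transcripts rich in cells of other gates were followed as lists. A monocyte-rich list of 746 transcripts was taken from the blood monocyte and CD8 T cell libraries (means over 4-fold apart after adding 1 CPM, no overlap, at least 10 CPM). Its members were chosen as lower in CD8 T cells than in monocytes. CD8 T cells lay near CD4 T cells above (median positions 11.8 and 8.64). The split of the list between B and CD4 T cells is thus not independent of that choice, whose part was not tested. Of its 708 tested members, 118 (16.7%) were called, close to the 16.3% of all tested. Shared were 252 of the 708, a smaller part than the 10192 (72.7%) of all 14012 tested. The calls were 103 higher in B cells (14.5%, against 7.81% of all tested) and 15 higher in CD4 T cells (2.12%, against 8.53%). The tested members made up 9.41% of the B-higher, 1.26% of the CD4T-higher and 5.05% of all tested transcripts. Their median log2 fold change was 0.51, against -0.01 over all. Their summed share of the total was 1.93% to 3.48% in B cells (median 2.40%) and 1.14% to 2.80% in CD4 T cells (median 1.77%), against 13.0% to 15.7% in the monocytes. The highest CD4 T cell value was that of replicate 5. Without that library, 221 of 706 members were higher in B cells and 13 in CD4 T cells. Of all 13978 transcripts tested then, 1622 were higher in B cells and 1442 in CD4 T cells. Without both that library and B cell replicate 2, 320 of 708 members were higher in B cells and 11 in CD4 T cells. Of all 13962 tested then, 1845 and 1849 were.

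The corresponding neutrophil-rich list held 723 transcripts, of which 422 were also in the monocyte-rich list (58.4% of the neutrophil-rich and 56.6% of the monocyte-rich list). Of its 651 tested members, 92 were higher in B cells (14.1%, against 7.81% of all tested) and 11 in CD4 T cells (1.69%, against 8.53%). This split is not independent of the choice against CD8 T cells either. Shared were 262 of the 651, a smaller part than the 10192 (72.7%) of all 14012 tested. Its summed share was 2.002% to 3.52% in B cells and 1.299% to 2.88% in CD4 T cells. The NK-rich list held 75 transcripts, with 74 tested and 4 called (5.41%), each of them higher in B cells. That was below the 7.81% of all tested transcripts that were higher in B cells. Its summed share was 0.162% to 0.479% in B cells and 0.140% to 0.360% in CD4 T cells, against 0.588% to 3.00% in NK cells. Which of these transcripts B or CD4 T cells express themselves was not tested, nor was the part of other cells in the differences.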

How the data were processed

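Of the 61 rat samples, 12 form the comparison, and their groups and numbers come from the sample titles. The authors prepared libraries with NEBNext Ultra II Directional, trimmed the reads, quantified them with Salmon 1.6.0 on Ensembl cDNA (GC and sequence bias corrected) and read the output with tximport in R 4.1.3. The methods name Rnor_6.0, and the submitters' processing notes also list mRatBN7.2. The methods give TPM, but the deposited values have unequal totals and were used as estimated counts. Among low values, 42.9% of 26534 lay within 0.15 of a whole multiple of the transcript's lowest values, against 30% if spread evenly, so whole reads were not recovered. The step between low values differed by transcript, from 0.189 to 3.27 (5th to 95th percentile), and whether transcript length was divided out was not tested. CPM here is per 1000000 of the deposited total. Of 31196 identifiers, 0 matched the 47357 RefSeq genes of GRCr8, so no names and no sequences are given. All columns were assigned, with 0 left over.

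Values were rounded and tested with edgeR 4.0.16 in R 4.3.3 (quasi-likelihood test, TMM, mean of at least 1 CPM, Benjamini-Hochberg adjusted p under 0.05), with no term for the replicate number. Intervals were computed from the quasi-likelihood F at its total degrees of freedom, which are the residual ones plus a prior part. CD8 T, NK, monocyte and neutrophil libraries had 1 fit, and spleen and whole blood cells another. Single values per library went into two-sided exact permutation tests over 924 splits. Alternatives used limma 3.58.1, DESeq2 1.42.0, other scalings and filters, and left-out libraries. The limma fits used CPM from library totals without TMM. Intervals cover the spread between libraries. The floor of 3 counts is in deposited units, which are not whole reads, so it does not bound the counting error.

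Named transcripts had to be called, not overlap between the groups and reach a mean of 10 CPM in the higher one, which left 191 candidates for B cells and 500 for CD4 T cells. Of each, the largest fold and the largest difference in CPM were taken. To these came the 2 highest shared transcripts inside 1.5-fold bounds. The comparison was proposed, and the transcript lists and rules were chosen, with earlier results of these data known. The procedures were tested on simulated data.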

Additional observations from a re-analysis of the deposited data

Results flagged for a closer look

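In 35 checks for a value far from the others of its group, 2 held one, where chance alone gives about 1 in 20. Each check took 1 measure over the libraries of 1 group, 6 libraries in each group except spleen with 5. Many checks reused the same libraries, so they were not independent. In B cells, the transcripts called higher in B cells held 12.6% of the total in replicate 2, with the next library at 10.3%. ENSRNOT00000075872 measured 4.01 CPM in B cell replicate 3 and was listed at 0 in the other 5 B cell libraries.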

How the results depend on the processing

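The counts of calls stayed within 1.5 times of 1095 for B cells and 1195 for CD4 T cells under these alternatives: 862 and 1028 without a filter, 896 and 891 at 10 CPM, 1393 and 1300 with DESeq2, 881 and 1605 with limma on log2(CPM + 1), 852 and 1591 with a pseudocount of 0.1, 1006 and 1435 with upper-quartile scaling, 1066 and 997 with all 36 sorted libraries. In limma, B cells held 35.4% of the calls. Without both B cell replicate 2 and CD4 T cell replicate 5, a choice made after seeing the data, they were 1845 and 1849. Leaving out 1 library at a time gave 781 to 1622 and 863 to 1442, and 9839 to 10347 shared transcripts. Near absence ranged from 0 to 1 for CD4 T cells and from 0 to 3 for B cells. The cause of these moves was not tested.

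With the replicate number as a block, 1037 and 1209 transcripts were called, of which 816 and 979 were also called without it. Same-numbered libraries deviated together (r over 0.1) in 4 of 6 pairs, and 6 of 12 libraries correlated best with their own number. The labels do not say whether a number marks a shared animal or day, and a pairing was not tested. The main counts carry no term for the number, so any such pairing is ignored in them.

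In the other samples, library totals alone gave, between CD8 T and NK cells, 2 B-higher and 244 CD4T-higher transcripts higher in CD8 T cells. These were 0.188% and 20.9%, against 3.19% of all tested. Members called with the block gave 21 of 1184 CD4T-higher ones lower (1.77%), against 6.75% of all tested. With members called without CD4 T cell replicate 5, 7 of 1577 B-higher transcripts were higher (0.444%) and 246 lower (15.6%), against 5.21% and 6.75%. Without the CD8 T and NK libraries numbered 5, 7 of 1060 B-higher transcripts were higher (0.660%), against 6.41% of all tested. Between monocytes and neutrophils, totals alone and limma gave 471 and 485 B-higher transcripts higher and 143 and 142 lower. For CD4T-higher ones they gave 429 and 439 higher and 97 and 95 lower. Of all tested transcripts, 43.8% and 45.1% were then higher, and 10.1% lower under either. Members called without CD4 T cell replicate 5 gave 394 of 1577 B-higher ones higher (25.0%), against 19.9% of all tested. Between spleen and whole blood cells, totals alone and limma gave 141 and 137 B-higher transcripts lower (13.0% and 12.6%). For CD4T-higher ones they gave 305 and 312 higher (26.1% and 26.7%) and 215 and 221 lower (18.4% and 18.9%). Of all tested transcripts, 35.2% and 36.1% were then higher and 14.7% and 14.9% lower. Members called without CD4 T cell replicate 5 gave 404 of 1601 B-higher ones lower (25.2%), near the 23.9% of all tested. The share of the 10 highest transcripts differed by 0.72 to 1.38 percentage points without single libraries. Under 3 CPM the median standard error was 0.35 on the log2 scale and 6.83% of transcripts were called, and no setting varied the depth.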
